A study of Mus musculus with 9 samples.

Results

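The branched-chain amino acid degradation genes of fat were taken as every gene that the authors' table assigns to the KEGG term for valine, leucine and isoleucine degradation, without Hmgcs1 and Acat2, which serve sterol synthesis. Genes whose names start with Acox were also to be left out. This gave 54 of the 28481 genes in the table, and 46 of the 54 had enough counts to be tested. By their role, 3 were assigned to transamination, 4 to the branched-chain keto acid dehydrogenase complex, 6 to the leucine branch, 8 to the valine and isoleucine branch, 5 to the propionate branch, 10 to acyl-CoA steps shared with fat oxidation, 5 to ketone bodies and acetoacetate, and 11 to aldehyde and amine steps. The remaining 2, Lao1 and 4930438A08Rik, were given no step.

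Leucine, isoleucine and valine lose their amino group to 2-oxoglutarate, which yields glutamate and branched keto acids, and a mitochondrial dehydrogenase complex then commits the keto acids to oxidation by releasing CO2 and forming acyl-CoA. Leucine carbon ends as acetyl-CoA and acetoacetate, valine carbon as propionyl-CoA, and isoleucine carbon as acetyl-CoA and propionyl-CoA. Propionyl-CoA then enters the citrate cycle as succinyl-CoA. White adipocytes use this carbon for energy and for fatty acid synthesis, and brown adipocytes burn it in the cold. Inherited loss of single enzymes in people causes maple syrup urine disease, isovaleric acidaemia, propionic acidaemia and methylmalonic acidaemia.

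The libraries were made from whole epididymal white adipose tissue of mice, with 5 libraries of genotype Control and 4 of genotype UBKO, and both genotypes had received CL316,243, an agonist of the beta3-adrenergic receptor of fat. The series title ties UBKO to inactivation of Ctnnb1 (beta-catenin, through which canonical Wnt signals act on transcription) in adipocytes that express Ucp1, so other cells of the pad would keep the gene. The sources used here give no alleles, no deleted part of Ctnnb1, no genetic background and no age. They also do not tie libraries to separate animals, so a p-value sets a difference against the spread between libraries, part of which may be technical. The question addressed here is how the genotypes differ in these genes under the agonist.

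Libraries held 15308480 to 17632709 gene counts. Levels within a gene are given as CPM (counts scaled to a fixed library size) scaled by edgeR's TMM method, always for Control replicates 1 to 5 and then for the libraries labelled UBKO replicates 1 to 4. TMM factors were 0.997 to 1.33 in Control and 0.818 to 0.933 in UBKO, and a lower factor raises CPM. Statements that UBKO lay above or below every Control refer to this scaling and were not repeated with another. Ctnnb1 stood at 339, 360.4, 294, 286 and 276 CPM in Control and 179.8, 209.7, 307 and 199 CPM in UBKO, a log2 difference of -0.48 (SE 0.17, edgeR adjusted p = 0.0976) that did not pass. It was lower than in each Control in UBKO replicates 1, 2 and 4. The library labelled UBKO replicate 3 lay within the Control range, against its label, and it is part of each direction given here. Control replicates 1 and 2 held 2.57% and 2.31% of their counts in 16 markers of epididymis epithelium, against 0.00199% to 0.00259% in the other 3 Control libraries, 0.0354% in UBKO replicate 2 and 0.000562% to 0.00072% in the other 3 UBKO libraries. The adipocyte label was checked on 15 markers, all detected, which took 2.13% to 3.34% of counts in Control and 2.65% to 3.43% in UBKO.

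In UBKO fat, 12 of the 46 tested genes of branched-chain amino acid degradation rose, by 1.57-fold to 2.15-fold, and 0 fell (edgeR's quasi-likelihood test, Benjamini-Hochberg adjusted p under 0.05 over all genes tested). The 12 were Pccb, Mccc1, Bckdha, Ivd, Pcca, Acat1, Aldh6a1, Hadh, Hibadh, Mccc2, Mmut and Dld. They make up 26.1% of the 46, beside 3.88% of all 16123 genes tested that were higher and 7.56% that were lower. The median log2 difference, UBKO minus Control, was 0.52 over the 46 and -0.005 over all genes tested. Of the 46, 38 had a positive and 8 a negative difference with TMM scaling. At an unadjusted p under 0.05, 25 were higher and 2 lower, but the share of all genes at that threshold was not counted. The 2 lower ones, Bcat1 and Aldh1b1, passed DESeq2's Wald test (11.4% of all genes lower). DESeq2 called 21 higher, the 12 included, beside 6.81% of all genes. In whole tissue, fewer cells of a type and less RNA per cell cannot be told apart.

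Of the 12 genes, 11 belong to the dehydrogenase complex and the 3 branches that follow it. The share that passed was 2 of 4 tested genes of the dehydrogenase complex, 3 of 5 of the leucine branch, 3 of 8 of the valine and isoleucine branch and 3 of 5 of the propionate branch. These 22 genes had positive differences with TMM scaling, though of those reported by name Acad8 and Mcee turned negative with scaling by total counts, and Auh and Dbt did so as well with scaling by adipocyte markers. Median log2 differences were 0.64, 0.73, 0.58 and 0.70 in the same order. Among acyl-CoA steps shared with fat oxidation 1 of 10 tested genes passed (median 0.42). At transamination (0 of 3, median -0.56), ketone body (0 of 3, median 0.15) and aldehyde and amine steps (0 of 8, median 0.01), edgeR's test called no gene. At an unadjusted p under 0.05 that test gave 1 higher and 1 lower, 1 higher, and 1 lower gene, again without a share of all genes. The transamination median is the value of Il4i1, an oxidase whose counts are uncertain. The aminotransferases Bcat2 (0.70) and Bcat1 (-1.29) went opposite ways, so the median gives no direction for this step.

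**Figure D1:**
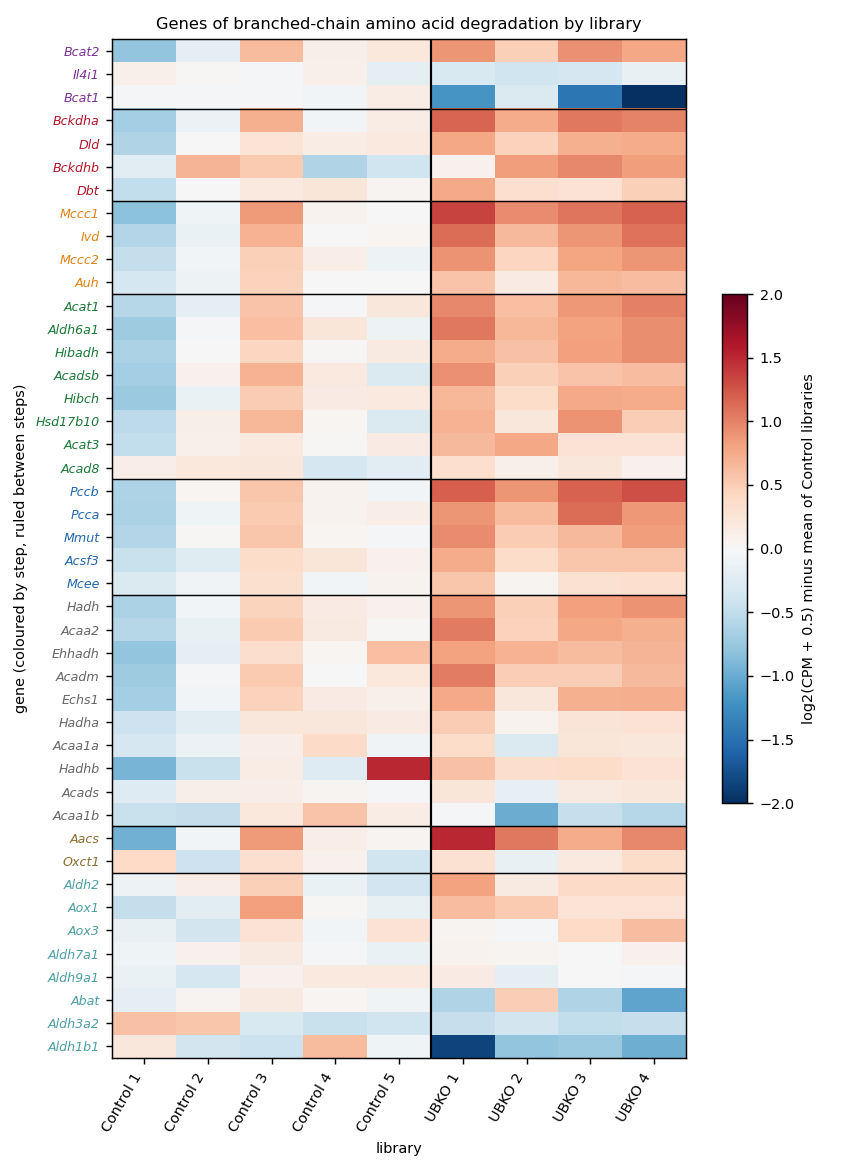
Log2 level of 44 of the 46 tested genes of branched-chain amino acid degradation in each of the 9 libraries, relative to the mean of the 5 Control libraries, with log2 of CPM + 0.5 as the level, red for higher and blue for lower, and genes coloured and ruled by step. Red fills most of the UBKO columns from Bckdha to Mcee, while Bcat1 and Aldh1b1 are blue there, and Control replicate 1 is the bluest Control column.

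The libraries did not differ by genotype alone. Control replicate 1 was the lowest Control library for 32 of the 46 tested genes and for all 12 that passed, and Control replicate 3 was the highest Control library for 31 of the 46 and for all 12. UBKO replicate 2 was the lowest UBKO library for 32 of the 46 and for all 12. The mean log2 level of the 15 adipocyte markers was 9.36, 9.67, 10.35, 10.23 and 9.98 in Control and 10.52, 10.05, 10.54 and 10.56 in UBKO, so it was also lowest in Control replicate 1 and, within UBKO, in replicate 2. Macrophage markers moved the other way. All 15 had a negative difference, and 14 were called lower in UBKO, beside 7.56% of all genes. The summed share of counts of macrophage markers was 0.115% to 0.281% in Control and 0.027% to 0.0375% in UBKO. Of 8 brown adipocyte markers 4 were higher and 0 lower (median log2 difference 0.90), beside 3.88% and 7.56% of all genes. Their summed share was 0.0157% to 0.0337% in Control and 0.0309% to 0.0484% in UBKO. With total counts, adipocyte marker scaling or Control replicates 1 and 2 left out, 1 of the 8 was higher (1.46%, 0.496% and 1.5% of all genes). No marker of these 4 lists was at 0 in all libraries. Genes of the mitochondrial chromosome took 8.78% to 17.8% of counts in Control and 20.1% to 25.4% in UBKO, without overlap. The part of these cell types and of the mitochondrial share in the rise was not tested.

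Without Control replicates 1 and 2, which held the epididymal transcripts, the median log2 difference of the pathway was 0.35, and 4 genes rose, namely Dld, Hibadh, Pcca and Pccb, beside 1.5% of all genes higher, and 0 were lower in edgeR's test, beside 4.9%. The 15 adipocyte markers had a median difference of 0.51 with all libraries and 0.15 without these 2. Without UBKO replicate 2 as well, 8 pathway genes were higher (2.63% of all genes) and 2, Abat and Bcat1, were lower (5.59% of all genes). The median of the pathway stood 0.53 above that of all genes with all libraries. It stood 0.34 above without Control replicates 1 and 2, and 0.41 above without UBKO replicate 2 as well.

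Scaling changed the size of the differences. With total counts in place of TMM the median of all genes shifted to -0.39 and that of the pathway to 0.16, so the pathway stood 0.56 above all genes, against 0.53 with TMM. Then 5 pathway genes were higher (Bckdha, Ivd, Mccc1, Pcca and Pccb; 1.46% of all genes) and 7 lower (Acaa1b, Aldh1b1, Aldh3a2, Aldh7a1, Aldh9a1, Bcat1 and Il4i1; 27.8% of all genes). When libraries were scaled to the same mean level of the adipocyte markers, the medians were -0.53 for all genes and 0.06 for the pathway, 1 pathway gene, Pccb, was higher (0.496% of all genes), and 2, Acaa1b and Aldh1b1, were lower (10.6% of all genes). With TMM 14 of these 15 markers had themselves a positive difference (median 0.51). By construction, this scaling takes away any difference between genotypes that a gene shares with them.

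The count of 12 also rested on single libraries. Pccb was the sole gene called higher without Control replicate 2, Control replicate 5, UBKO replicate 1, UBKO replicate 4 or the library labelled UBKO replicate 3. Mccc2 joined it without Control replicate 4. Without Control replicate 3 the count was 23, without Control replicate 1 it was 11, and without UBKO replicate 2 it was 10. Called lower were Aldh1b1 without Control replicate 3 (1495 of all 15886 genes lower) and Abat and Bcat1 without UBKO replicate 2 (1145 of all 16379). The rest of these fits called no pathway gene lower. Higher calls over all genes moved as well: beside 3.88% with all libraries, they were 6.01% without Control replicate 3, 2.62%, 2.24%, 2.99% and 2.33% without Control replicate 1, 2, 4 or 5, 3.45% without UBKO replicate 2, 1.39% without UBKO replicate 1, 0.926% without UBKO replicate 4 and 0.915% when the library labelled UBKO replicate 3 was left out. Over these 9 fits the median difference of the pathway stayed between 0.45 and 0.63.

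**Figure D2:**
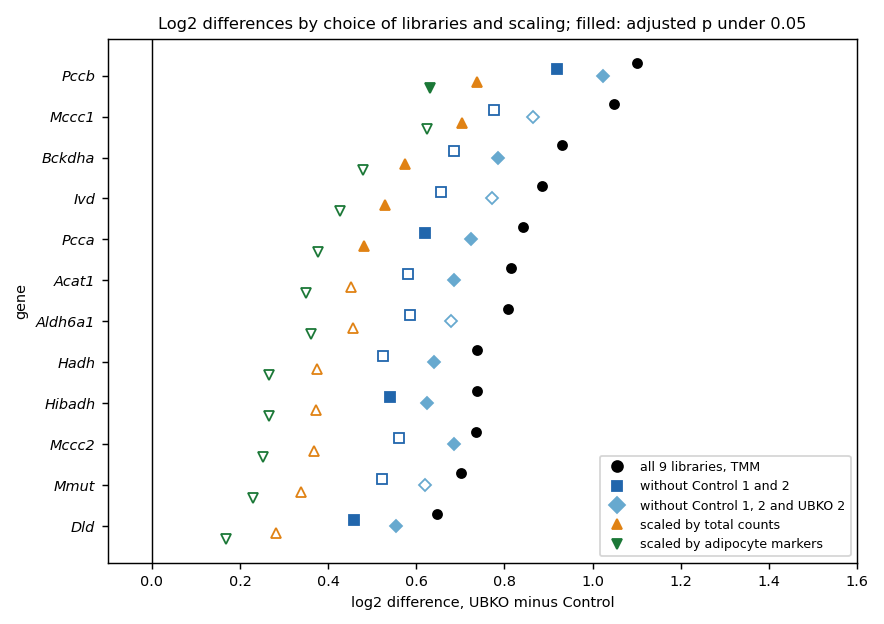
Log2 difference, UBKO minus Control, of the 12 genes that rose, with all 9 libraries and TMM, without Control replicates 1 and 2, without these and UBKO replicate 2, with total counts, and with adipocyte marker scaling; filled symbols passed edgeR's adjusted p of 0.05. The 12 stayed above 0 under these 5 choices, and Pccb alone was filled under each.

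Transamination is carried out by Bcat2, the mitochondrial enzyme of most tissues, and by Bcat1, its cytosolic form. Bcat2 (ENSMUSG00000030826, mm10 chromosome 7, 45570153 to 45589711) had 184, 283, 496, 346 and 370.0 CPM in Control and 586, 442, 603 and 543 CPM in UBKO. Bcat1 (ENSMUSG00000030268, mm10 chromosome 6, 144993835 to 145076184) had 4.67, 4.64, 4.61, 4.6 and 5.36 CPM in Control and 1.82, 3.82, 1.43 and 0.695 CPM in UBKO, from 434 counts in all Control and 117 in all UBKO libraries. For Bcat2 the groups overlapped, with UBKO replicate 2 below Control replicate 3, and for Bcat1 every UBKO library lay below every Control. Neither passed edgeR's test: the log2 difference was 0.70 (SE 0.25, edgeR adjusted p = 0.0969) for Bcat2 and -1.29 (SE 0.40, edgeR adjusted p = 0.066) for Bcat1. Per length, Bcat2 was far the more abundant, at 66 ± 18.1 FPKM (fragments per kilobase of gene and per unit of library size; SD, n = 5) in Control and 84.9 ± 8.69 FPKM (SD, n = 4) in UBKO, while Bcat1 had 0.471 ± 0.0602 and 0.154 ± 0.115 FPKM.

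The log2 ratio of Bcat2 to Bcat1 was 5.16, 5.78, 6.60, 6.09 and 5.98 in Control and 7.98, 6.68, 8.29 and 8.83 in UBKO. Each UBKO library lay above each Control, by the least in UBKO replicate 2. The mean rose from 5.92 ± 0.52 (SD, n = 5) to 7.94 ± 0.91 (SD, n = 4), a difference of 2.02, with an exact two-sided permutation p of 0.0159, the smallest that 5 against 4 libraries allow, and 0.0476 after adjustment over 3 ratios. Without Control replicates 1 and 2 the difference was 1.72, and the exact permutation p of 0.0571 was the smallest that 3 against 4 libraries can give. Macrophage markers were lower in UBKO, as given above. The mean log2 level of 5 adipocyte progenitor markers, relative to the Control mean, was -0.79, -0.06, -0.57 and -0.62 in UBKO. Of the 5, 4 had a negative difference and 1 passed as lower, beside 7.56% of all genes. The part of either cell type in the lower level of Bcat1 was not tested. The third gene here, Il4i1, a secreted amino acid oxidase of immune cells, had 62 counts in Control and 27 in UBKO in all, and genes overlapping it held 26993% as many counts, so its difference of -0.56 (edgeR adjusted p = 0.226) is uncertain.

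The dehydrogenase complex has a decarboxylase made of Bckdha and Bckdhb, a transacylase core, Dbt, and a dihydrolipoamide dehydrogenase, Dld, which also serves the pyruvate and 2-oxoglutarate complexes. Bckdha (ENSMUSG00000060376, mm10 chromosome 7, 25629946 to 25658981) had 114, 167, 297, 174 and 200.4 CPM in Control and 407, 304, 377 and 362 CPM in UBKO. Dld (ENSMUSG00000020664, mm10 chromosome 12, 31331277 to 31351453) had 181, 276, 336, 306 and 317 CPM in Control and 476, 381, 452 and 465 CPM in UBKO. In both, each UBKO library lay above each Control, with Control replicate 3 the nearest. Bckdha rose 1.91-fold, a log2 difference of 0.93 (SE 0.24, edgeR adjusted p = 0.0345), and Dld rose 1.57-fold, 0.65 (SE 0.17, edgeR adjusted p = 0.0422). Each passed in 3 of 9 fits without 1 of the libraries, with edgeR adjusted p up to 0.0956 when the library labelled UBKO replicate 3 was left out for Bckdha and 0.118 without UBKO replicate 4 for Dld. Genes overlapping Bckdha, chiefly B3gnt8, held 8.11% as many counts. The sources used here do not say whether counting used strand.

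Bckdhb and Dbt did not pass. Bckdhb had 117, 216, 194, 88.2 and 101 CPM in Control and 142, 240.2, 263 and 241 CPM in UBKO, and the Control libraries were split, with replicates 2 and 3 near the UBKO level and replicates 1, 4 and 5 lower, while UBKO replicate 1 lay within the Control range. Its log2 difference was 0.63 (SE 0.29, edgeR adjusted p = 0.192), with a 95% interval of -0.03 to 1.29. Dbt had 61.1, 85.8, 98.7, 102 and 89 CPM in Control and 146, 109, 106 and 120.3 CPM in UBKO, with each UBKO library above each Control by a small margin, and a difference of 0.46 (SE 0.16, edgeR adjusted p = 0.0919). Per length the complex was uneven in Control, with Bckdha at 102 ± 29.3, Dld at 73.5 ± 11.6, Bckdhb at 63 ± 25.7 and Dbt at 25.1 ± 2.67 FPKM (SD, n = 5). Bckdha, Dld and Bckdhb did not separate beyond their spread, and Dbt lay below them.

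Bckdk, the kinase that switches the complex off, had 71.7, 87.9, 86.6, 90.5 and 78.1 CPM in Control and 135, 88.2, 135 and 108 CPM in UBKO, and Ppm1k, the phosphatase that switches it on, had 6.6, 10.3, 13.9, 15.9 and 11.8 CPM in Control and 18.4, 14, 16 and 13.1 CPM in UBKO. The groups overlapped for both genes, and the log2 differences were 0.49 (SE 0.14, edgeR adjusted p = 0.0525) and 0.40 (SE 0.23, edgeR adjusted p = 0.3). The log2 ratio of Bckdk to Ppm1k was 2.82 ± 0.36 (SD, n = 5) in Control and 2.87 ± 0.19 (SD, n = 4) in UBKO, a difference of 0.05 (exact permutation p = 0.794, adjusted 0.794) whose sign turned in 3 of the 9 sets that left out 1 library (Control replicate 3, Control replicate 4 or the library labelled UBKO replicate 3), down to -0.04. That of Bckdk to Bckdha was -1.13 ± 0.44 in Control and -1.65 ± 0.14 in UBKO, a difference of -0.52 (exact permutation p = 0.0794, adjusted 0.119), and without Control replicate 3 it was -0.68 (exact permutation p adjusted 0.0429). With adipocyte marker scaling the differences of Bckdk and Ppm1k both turned to -0.05.

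In the leucine branch, Ivd (isovaleryl-CoA dehydrogenase) makes methylcrotonyl-CoA, which the biotin enzyme of Mccc1 and Mccc2 carboxylates, and Auh hydrates the product. Mccc1 (ENSMUSG00000027709, mm10 chromosome 3, 35959312 to 36000678) had 45.9, 76.3, 147, 85.5 and 81 CPM in Control and 208, 156, 171 and 185 CPM in UBKO. Mccc2 (ENSMUSG00000021646, mm10 chromosome 13, 99948530 to 100015639) had 52.8, 70.6, 103, 80.7 and 68.6 CPM in Control and 137, 99, 127 and 136 CPM in UBKO. Ivd (ENSMUSG00000027332, mm10 chromosome 2, 118861954 to 118882909) had 68.4, 94.2, 168, 102 and 106 CPM in Control and 226, 161, 189.7 and 219 CPM in UBKO. The UBKO libraries lay above every Control for Mccc1, while for Mccc2 and Ivd UBKO replicate 2 fell just below Control replicate 3. Mccc1 rose 2.07-fold, a log2 difference of 1.05 (SE 0.27, edgeR adjusted p = 0.037), Mccc2 rose 1.66-fold, 0.73 (SE 0.18, edgeR adjusted p = 0.0323), and Ivd rose 1.85-fold, 0.89 (SE 0.23, edgeR adjusted p = 0.0358). They passed in 3 of 9, 4 of 9 and 3 of 9 fits without 1 of the libraries, with edgeR adjusted p up to 0.101 without UBKO replicate 1, 0.0984 without UBKO replicate 4 and 0.105 without UBKO replicate 4.

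Auh, a later step of leucine breakdown, did not pass. It had 44.6, 53, 78.5, 56.7 and 56.2 CPM in Control and 84.4, 63.6, 90 and 87 CPM in UBKO. The groups overlapped, and the log2 difference was 0.49 (SE 0.17, edgeR adjusted p = 0.0863), about 0 with adipocyte marker scaling (-0.0072). Hmgcll1 had 14 counts in Control and 6 in UBKO in all and was not tested.

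**Figure D3:**
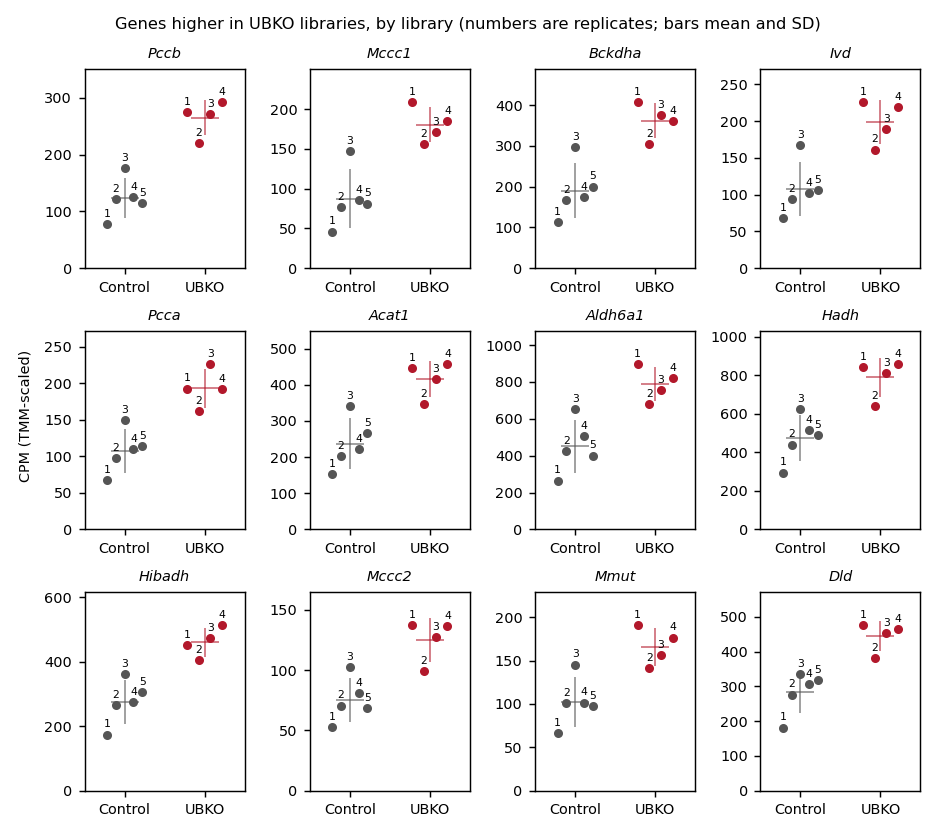
CPM of the 12 genes that rose in UBKO, in each library; points are libraries, numbered by replicate, and crosses show the mean and SD of the 5 Control and 4 UBKO libraries. UBKO lay above every Control for 9 of the 12, and for Ivd, Mccc2 and Mmut the groups overlapped.

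In the valine and isoleucine branch, Hibadh oxidises hydroxyisobutyrate on the valine side, Aldh6a1 turns methylmalonate semialdehyde into propionyl-CoA, and Acat1 splits methylacetoacetyl-CoA on the isoleucine side and also acts on ketone bodies. Hibadh (ENSMUSG00000029776, mm10 chromosome 6, 52546228 to 52640389) had 174, 266, 362, 275 and 306 CPM in Control and 451, 405, 474 and 514 CPM in UBKO. Aldh6a1 (ENSMUSG00000021238, mm10 chromosome 12, 84430717 to 84451004) had 265, 423, 654, 508 and 400.5 CPM in Control and 899, 680.0, 754 and 819.9 CPM in UBKO. Acat1 (ENSMUSG00000032047, mm10 chromosome 9, 53580522 to 53610382) had 153, 202, 341, 222 and 266 CPM in Control and 446, 347, 416 and 458 CPM in UBKO. In these 3 genes UBKO lay above every Control, with UBKO replicate 2 and Control replicate 3 closest, and for Acat1 only 347 against 341 CPM apart. The log2 differences were 0.74 (SE 0.19, edgeR adjusted p = 0.0351) for Hibadh, a 1.67-fold rise, 0.81 (SE 0.23, edgeR adjusted p = 0.0489) for Aldh6a1, a 1.75-fold rise, and 0.81 (SE 0.21, edgeR adjusted p = 0.0366) for Acat1, a 1.76-fold rise. They passed in 3 of 9, 2 of 9 and 3 of 9 fits without 1 of the libraries, with edgeR adjusted p up to 0.109 without UBKO replicate 4, 0.128 without UBKO replicate 1 and 0.109 without UBKO replicate 4.

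The other 5 genes of this branch did not pass. Hibch, which frees hydroxyisobutyrate from CoA, had a log2 difference of 0.58 (SE 0.22, edgeR adjusted p = 0.115), Acadsb, the dehydrogenase of the isoleucine side, 0.59 (SE 0.24, edgeR adjusted p = 0.145), and Hsd17b10, which oxidises its hydroxyacyl-CoA, 0.55 (SE 0.24, edgeR adjusted p = 0.161). Hibch had 76, 116, 183, 144 and 146 CPM in Control and 203, 164, 215 and 214 CPM in UBKO, and these 3 genes overlapped between groups. Acad8, the dehydrogenase of the valine side, had 52.5, 55.4, 56.1, 38 and 41 CPM in Control and 60.5, 51.4, 56.1 and 51 CPM in UBKO and a difference of 0.17 (SE 0.14, edgeR adjusted p = 0.451), turning to -0.23 with scaling by total counts. Acat3 lay above every Control in UBKO (0.51, SE 0.17, edgeR adjusted p = 0.0806), but it is a close copy of Acat2 and overlaps Tcp1, and overlapping genes held 794% as many counts, so its counts are uncertain. Genes overlapping Acadsb, chiefly Fgfr2, held 16.6% as many.

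The propionate branch carried the change with the lowest p in the pathway. Propionyl-CoA carboxylase, a biotin enzyme of Pcca and Pccb subunits, makes methylmalonyl-CoA, Mcee turns it into its other stereoisomer, and the cobalamin enzyme Mmut makes succinyl-CoA. Pccb (ENSMUSG00000032527, mm10 chromosome 9, 100982032 to 101034898) had 78, 122, 176, 125 and 115 CPM in Control and 275, 220.3, 271 and 292 CPM in UBKO. Pcca (ENSMUSG00000041650, mm10 chromosome 14, 122534324 to 122891100) had 67.1, 98.1, 150.1, 110.2 and 114 CPM in Control and 193, 162, 227 and 192 CPM in UBKO. Mmut (ENSMUSG00000023921, mm10 chromosome 17, 40934685 to 40961988) had 66, 101, 145, 101 and 97.2 CPM in Control and 191, 141, 156 and 176 CPM in UBKO. UBKO lay above every Control for both carboxylase subunits, with a gap from 176 to 220.3 CPM for Pccb, while for Mmut UBKO replicate 2 lay just below Control replicate 3. Pccb rose 2.15-fold, a log2 difference of 1.10 (SE 0.20, edgeR adjusted p = 0.00973), Pcca rose 1.79-fold, 0.84 (SE 0.20, edgeR adjusted p = 0.0292), and Mmut rose 1.63-fold, 0.70 (SE 0.20, edgeR adjusted p = 0.0493).

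Pccb kept its call in 9 of 9 fits without 1 of the libraries, with edgeR adjusted p up to 0.0389 without UBKO replicate 4, while Pcca passed in 3 of 9 and Mmut in 1 of 9 (up to 0.0953 when the library labelled UBKO replicate 3 was left out and 0.131 without UBKO replicate 1). When Control replicates 1 and 2 were left out, Pccb had a log2 difference of 0.92 (edgeR adjusted p = 0.0183) and Pcca of 0.62 (edgeR adjusted p = 0.0485). Mcee had 20.1, 23.4, 30.9, 23.7 and 25.9 CPM in Control and 36.3, 25.6, 30.4 and 31.2 CPM in UBKO and a difference of 0.32 (SE 0.14, edgeR adjusted p = 0.18), which turned to -0.06 with scaling by total counts. Acsf3, which activates malonate and methylmalonate in mitochondria, had 30.4, 34.9, 53.8, 49 and 44.3 CPM in Control and 69.9, 53.8, 60.9 and 61.5 CPM in UBKO and a difference of 0.54 (SE 0.17, edgeR adjusted p = 0.0698). Genes overlapping Pcca, chiefly Ggact, held 7.31% as many counts. The subunits of each carboxylase differed in level per length: in Control Pccb had 34.3 ± 7.33 and Pcca 14.9 ± 3.09 FPKM, and Mccc2 had 20.2 ± 3.28 and Mccc1 7.06 ± 2.46 FPKM (SD, n = 5).

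**Figure D4:**
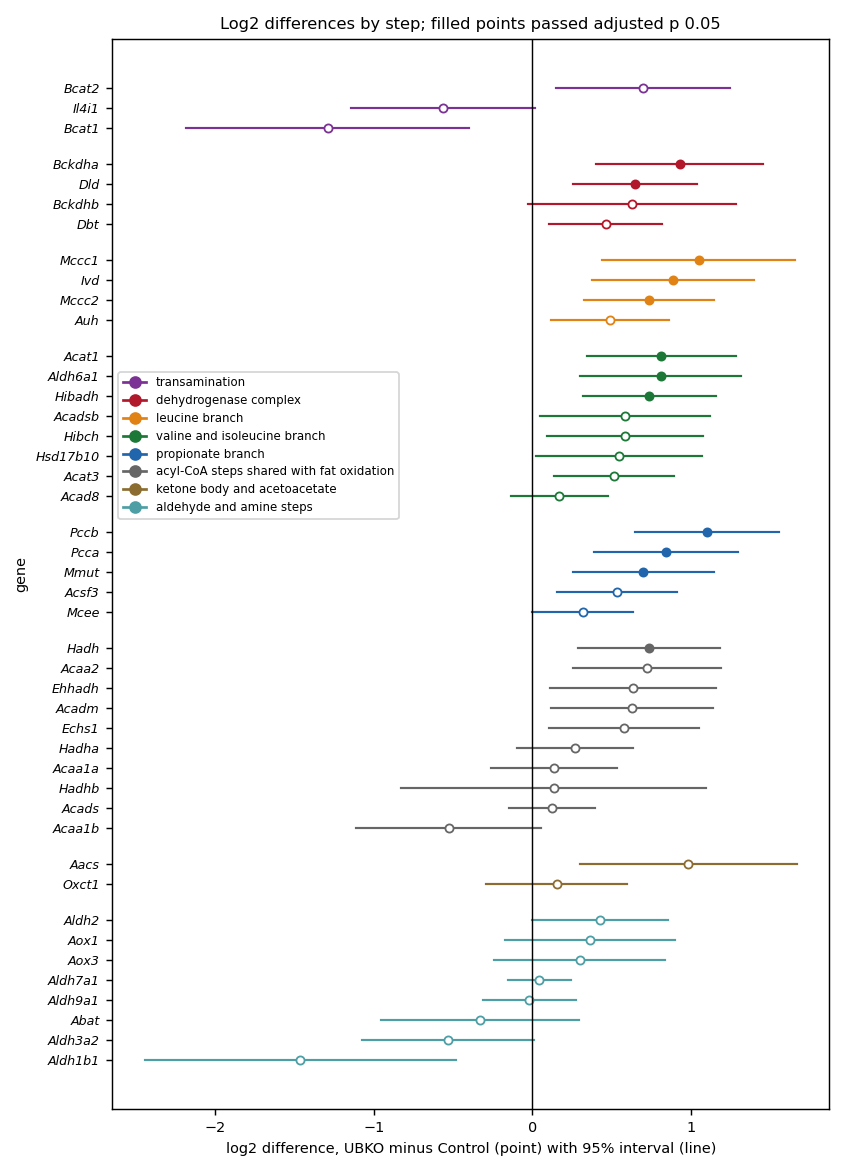
Log2 difference, UBKO minus Control, with its 95% interval (not adjusted for the number of genes) for 44 of the 46 tested genes of the pathway, grouped by step; filled points passed edgeR's test. Pccb, Mccc1 and Bckdha lie farthest to the right among the filled points, at 1.10, 1.05 and 0.93.

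The 4 carboxylase subunits were all called higher, and they were chosen for display after their values were seen. The 250 bases before their annotated starts are shown, read 5′ to 3′ on the strand of the gene from RefSeq (GRCm38.p6), with matches to GCGCANGCG in capitals. For Pcca the window before 1 of its annotated starts is given.
Pcca (chr14:122534078-122534327, plus strand): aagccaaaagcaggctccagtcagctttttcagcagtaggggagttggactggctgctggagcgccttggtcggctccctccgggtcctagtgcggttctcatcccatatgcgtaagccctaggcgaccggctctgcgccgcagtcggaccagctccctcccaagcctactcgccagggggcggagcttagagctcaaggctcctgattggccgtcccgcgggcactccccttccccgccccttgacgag
Pccb (chr9:101034885-101035134, minus strand): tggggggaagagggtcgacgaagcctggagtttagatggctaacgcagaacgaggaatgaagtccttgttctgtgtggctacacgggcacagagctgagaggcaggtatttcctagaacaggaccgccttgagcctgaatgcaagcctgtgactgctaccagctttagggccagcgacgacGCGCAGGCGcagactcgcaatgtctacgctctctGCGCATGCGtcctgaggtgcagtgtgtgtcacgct
Mccc1 (chr3:36000679-36000928, minus strand): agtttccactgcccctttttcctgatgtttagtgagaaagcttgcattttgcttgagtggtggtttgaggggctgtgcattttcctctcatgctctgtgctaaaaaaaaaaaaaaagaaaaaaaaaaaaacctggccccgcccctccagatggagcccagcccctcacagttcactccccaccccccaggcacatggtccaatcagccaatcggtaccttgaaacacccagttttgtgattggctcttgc
Mccc2 (chr13:100015640-100015889, minus strand): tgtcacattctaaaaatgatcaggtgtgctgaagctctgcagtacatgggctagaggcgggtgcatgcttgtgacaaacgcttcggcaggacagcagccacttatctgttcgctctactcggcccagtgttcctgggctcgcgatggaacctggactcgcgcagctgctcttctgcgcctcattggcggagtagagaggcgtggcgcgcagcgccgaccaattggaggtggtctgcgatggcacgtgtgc

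Of the 54 genes, 44 had an entry with 50 such windows, and those with none included Abat, Acaa2, Acat1, Acat3, Aldh2, Aldh7a1, Dbt and Mmut. Exact matches were counted on both strands among the 50 and among all 32851 windows of the same length. The estrogen-related receptor motif TCAAGGTCA was found in 0 of 50 (0.387% of all windows), the direct repeat of PPAR with RXR, spaced by a single base, in 0 (0.0335%), and the palindrome of NRF1 in 0 (0.782%). Looser forms were added after these were seen. GCGCANGCG, which holds most of the NRF1 motif, was in 4 of 50 windows (8.0%, against 5.16% of all), those of Aacs, Acadm, Hibadh and Pccb, with 2 matches in Pccb. AGGTCA, part of both receptor motifs, was in 8 of 50 (16.0%, against 14.0% of all), 1 of them the window before another annotated start of Pcca, which is not shown. A match is only a run of letters in the window.

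Among acyl-CoA steps shared with fat oxidation, 1 of 10 genes passed. Hadh (ENSMUSG00000027984, mm10 chromosome 3, 131233419 to 131272101), the hydroxyacyl-CoA dehydrogenase of shorter chains, had 295, 441, 626, 517 and 489.9 CPM in Control and 845, 641, 812 and 861 CPM in UBKO, and UBKO lay above every Control. It rose 1.67-fold, a log2 difference of 0.74 (SE 0.20, edgeR adjusted p = 0.0434), and passed in 3 of 9 fits without 1 of the libraries, with edgeR adjusted p up to 0.124 without UBKO replicate 4. The other 9 did not pass. Acaa1b, a thiolase of peroxisomes, had a log2 difference of -0.53 (SE 0.26, edgeR adjusted p = 0.219), and Acadm, the medium-chain dehydrogenase, 0.63 (SE 0.23, edgeR adjusted p = 0.106). Acaa1b had 733, 717, 1153, 1480.5 and 1103 CPM in Control and 979.7, 499.8, 724 and 675 CPM in UBKO. It was the single gene of the 10 with a negative difference with TMM scaling, and its reads may be shared with the near-identical Acaa1a.

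Acaa2, the mitochondrial thiolase, had 175, 236, 376, 295 and 264 CPM in Control and 539, 361, 446 and 429 CPM in UBKO, and its difference of 0.72 (SE 0.21, edgeR adjusted p = 0.0537) missed the threshold, as did those of Echs1, the crotonase, 0.58 (edgeR adjusted p = 0.11), and Ehhadh, the bifunctional enzyme of peroxisomes, 0.63 (edgeR adjusted p = 0.111). Hadha, the alpha subunit of the trifunctional protein, had a difference of 0.27 (SE 0.16, edgeR adjusted p = 0.319). Hadhb, its beta subunit, had 32.1, 45, 68.2, 51.3 and 175 CPM in Control and 93, 78.8, 79.4 and 75.7 CPM in UBKO. A single library, Control replicate 5, lay above all others, and the difference of 0.14 (SE 0.43, edgeR adjusted p = 0.872) had a 95% interval of -0.83 to 1.10. Acads, the short-chain dehydrogenase (0.12, edgeR adjusted p = 0.553), and Acaa1a (0.14, edgeR adjusted p = 0.663) did not pass either. With scaling by total counts Hadha, Hadhb, Acads and Acaa1a turned negative, as did Hadhb without Control replicate 1. The genes of this paragraph were chosen for mention after their values were seen.

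Among genes of acetoacetate, Aacs, which activates acetoacetate for lipid synthesis in the cytosol, had 137, 256, 482, 293 and 278 CPM in Control and 763, 555, 451 and 519 CPM in UBKO. The groups overlapped, and its log2 difference of 0.98 (SE 0.31, edgeR adjusted p = 0.0667) did not pass, while in the authors' deposited table its q-value of 0.0365 did. Oxct1, which lets tissues use ketone bodies, had 216, 122, 207, 174 and 125 CPM in Control and 203, 147, 188 and 212 CPM in UBKO (0.15, edgeR adjusted p = 0.668), turning to -0.25 with scaling by total counts. Oxct2a and Oxct2b, near-identical copies, had 13 or 14 counts each over all 9 libraries and were not tested.

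Of aldehyde and amine steps, Aldh2, the mitochondrial aldehyde dehydrogenase, had a log2 difference of 0.43 (edgeR adjusted p = 0.176), Aldh9a1, which acts on amino aldehydes, -0.02 (edgeR adjusted p = 0.942), and Aox1, an aldehyde oxidase, 0.37 (edgeR adjusted p = 0.355). Aldh2 turned to -0.10 and Aox1 to -0.05 with scaling by adipocyte markers. The largest negative difference of the pathway was that of Aldh1b1, -1.46 (SE 0.44, edgeR adjusted p = 0.0602), from 213 counts in Control and 50 in UBKO, with 2.73, 1.65, 1.56, 3.78 and 2.1 CPM in Control and 0.26, 1.1, 1.15 and 0.904 CPM in UBKO, so each UBKO library lay below each Control. Aldh3a2, a fatty aldehyde dehydrogenase, had 86.2, 84.5, 46.1, 41.8 and 43.1 CPM in Control and 41.5, 44, 40.4 and 41.4 CPM in UBKO. Control replicates 1 and 2, the libraries with epididymal transcripts, stood apart, and its difference was -0.53 with and -0.07 without them. Abat, which acts on amino groups in valine breakdown (-0.33, edgeR adjusted p = 0.482), Aldh7a1 (0.04, edgeR adjusted p = 0.789) and Aox3 (0.30, edgeR adjusted p = 0.456) did not pass, and genes overlapping Aldh7a1 held 47% as many counts. With scaling by total counts Aldh7a1 turned to -0.34 and Aox3 to -0.08. Aldh1b1, Aldh3a2, Abat, Aldh7a1 and Aox3 were chosen after their values were seen. Agxt2, Aox2 and Aox4 were not tested, with at most 61 counts each, nor were Lao1 (77 counts) and 4930438A08Rik (10 counts).

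Of all 46 tested genes, 12 lay in UBKO above every Control in TMM-scaled CPM, beside 6.41% of all genes tested. Below every Control lay 2, Bcat1 and Aldh1b1, beside 9.11% of all genes. The TMM factors themselves separated the genotypes, and separation was not counted with total counts. The 12 were not the 12 that passed: 9 are shared, and Dbt, Ehhadh and Acat3 take the places of Ivd, Mccc2 and Mmut.

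A list of 28 partners of the pathway covered its control, carriers, cofactors and nitrogen, and 1 gene rose and 3 fell. These are 3.57% and 10.7% of the list, near the 3.88% and 7.56% of all genes tested, and with scaling by total counts 0 were higher in edgeR's test and 8 lower (1.46% and 27.8% of all genes). The 3 that fell were carriers and a transaminase: Slc43a2 and Slc7a8, which move large neutral amino acids across the cell membrane, and Got1, the cytosolic aspartate transaminase. Slc43a2 had 47.8, 25.9, 31.7, 48.1 and 49.5 CPM in Control and 17.4, 15.9, 19.6 and 17.7 CPM in UBKO. Slc7a8 had 76.6, 61.2, 18.4, 25.5 and 29.3 CPM in Control and 11.8, 9.84, 9.32 and 6.95 CPM in UBKO. In both, each UBKO library lay below each Control, though for Slc7a8 Control replicates 1 and 2 stood far above the other Control libraries. Slc43a2 fell, with a log2 difference of -1.20 (SE 0.20, edgeR adjusted p = 0.00686), in 9 of 9 fits that left out 1 library, and Slc7a8 fell, -2.15 (SE 0.43, edgeR adjusted p = 0.0133), in 7 of 9. The call of Slc7a8 was lost without UBKO replicate 4 (edgeR adjusted p = 0.0529) and when the library labelled UBKO replicate 3 was left out (edgeR adjusted p = 0.0511). With Control replicates 1 and 2 left out, Slc43a2 differed by -1.30 (edgeR adjusted p = 0.00605) and Slc7a8 by -1.37 (edgeR adjusted p = 0.0113). Macrophage markers, 14 of 15 called lower in UBKO (7.56% of all genes), moved with both, and their part was not tested.

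Slc7a5, the leucine carrier of proliferating cells, had 385, 498, 12.7, 18.5 and 14.1 CPM in Control and 9.77, 13.7, 10.8 and 9.32 CPM in UBKO. Control replicates 1 and 2 held most of its counts, and its difference of -4.09 (SE 1.25, edgeR adjusted p = 0.0635) was -0.48 (edgeR adjusted p = 0.197) without them. Its heavy chain partner Slc3a2 had 272, 246, 101, 99.1 and 109.6 CPM in Control and 77.2, 70.5, 78.8 and 86.5 CPM in UBKO and a difference of -1.08 (SE 0.34, edgeR adjusted p = 0.0663), and -0.41 (edgeR adjusted p = 0.0501) without these 2. Slc43a1, a related carrier, had 11.6, 12.9, 43.6, 21.9 and 22.8 CPM in Control and 59.2, 35.5, 38.1 and 39.8 CPM in UBKO and a difference of 0.94 (SE 0.36, edgeR adjusted p = 0.123) that did not pass. Slc25a44, the carrier that brings these amino acids into mitochondria of brown fat, had 36.9, 61.6, 59, 74.9 and 56.9 CPM in Control and 58.7, 55.6, 67.5 and 66.9 CPM in UBKO, with overlapping groups, a difference of 0.10 (SE 0.18, edgeR adjusted p = 0.748) and a 95% interval of -0.29 to 0.50, and its sign turned with scaling by total counts (-0.26).

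**Figure D5:**
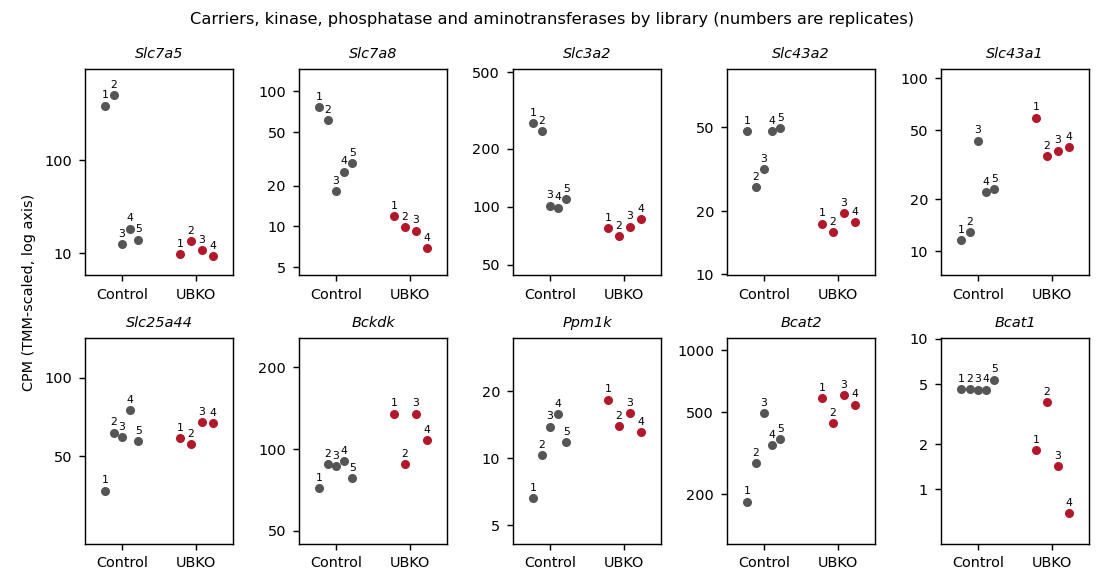
CPM on a log axis of carriers, kinase, phosphatase and aminotransferases of the pathway, in each library of Control and UBKO, with points numbered by replicate. Slc43a2 and Slc7a8 lie lower in each UBKO library than in each Control, and Slc7a5 is high in Control replicates 1 and 2, at 385 and 498 CPM.

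Among cofactor genes, Mmadhc, which directs cobalamin to Mmut or to methionine synthase, had 55.9, 71.9, 68.9, 62.7 and 65.9 CPM in Control and 86.9, 75.1, 92.4 and 92.1 CPM in UBKO. Each UBKO library lay above each Control, and it rose with a log2 difference of 0.41 (SE 0.10, edgeR adjusted p = 0.0337), but turned to -0.12 with scaling by adipocyte markers and passed in 3 of 9 fits that left out 1 library (edgeR adjusted p up to 0.103 without UBKO replicate 4). The other cobalamin genes did not pass, with differences of 0.19 for Mmaa, 0.28 for Mmab and 0.11 for Mmachc, nor did the biotin genes Hlcs (-0.09) and Btd (0.06). The lipoylation genes Lias (0.36), Lipt1 (0.27) and Lipt2 (0.09), which equip Dbt, did not pass either. Genes overlapping Btd held 165%, those overlapping Lipt1 47.6% and those overlapping Hlcs 17.3% as many counts, so these values are uncertain. Etfa (0.41), Etfb (0.51) and Etfdh (0.46), which take electrons from acyl-CoA dehydrogenases such as Ivd, missed the threshold too.

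Of the nitrogen genes, Got1 had 14.4, 13.7, 11.8, 14.1 and 12.6 CPM in Control and 7.29, 11.3, 6.31 and 4.38 CPM in UBKO. Each UBKO library lay below each Control, and it fell, with a log2 difference of -0.86 (SE 0.24, edgeR adjusted p = 0.0462), but in 2 of 9 fits that left out 1 library (edgeR adjusted p up to 0.129 when the library labelled UBKO replicate 3 was left out), and without Control replicates 1 and 2 it was -0.82 (edgeR adjusted p = 0.148). Its mitochondrial form Got2 had 116, 122, 37.4, 46.7 and 42.9 CPM in Control and 28, 55.9, 25.6 and 24.7 CPM in UBKO, with Control replicates 1 and 2 apart, and a difference of -1.12 (SE 0.43, edgeR adjusted p = 0.124). Glul, which makes glutamine from glutamate, had 1097, 1427, 1928, 1993 and 1322 CPM in Control and 2639, 2334, 2433 and 2223 CPM in UBKO, with UBKO above every Control and a difference of 0.63 (SE 0.19, edgeR adjusted p = 0.0626), and genes overlapping it held 25.3% as many counts. Gpt2, the mitochondrial alanine transaminase, also lay above every Control in UBKO (0.81, SE 0.26, edgeR adjusted p = 0.0734). Glud1 (0.36) and Gpt (0.23) did not pass. Klf15, a transcription factor known to induce amino acid breakdown, had 33.3, 30.4, 77.3, 53.7 and 37.8 CPM in Control and 85.5, 59.1, 64.8 and 57.4 CPM in UBKO and a difference of 0.52 (SE 0.27, edgeR adjusted p = 0.24).

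Neighbouring mitochondrial pathways moved the same way with TMM scaling. Of 30 tested citrate cycle genes 10 were higher and 1 lower (median log2 difference 0.67), and of 124 of oxidative phosphorylation 58 were higher and 4 lower (median 0.58). Of 21 tested fatty acid degradation genes outside the branched-chain list, 3 were higher and 1 lower (median 0.43), beside 3.88% and 7.56% of all genes. Branched-chain genes were taken out of the fatty acid list only, so the citrate cycle and oxidative phosphorylation lists may share genes with the pathway. With scaling by total counts the higher and lower genes numbered 7 and 1 in the citrate cycle (median 0.31), 38 and 16 in oxidative phosphorylation (median 0.20) and 0 and 5 in fatty acid degradation (median 0.08), beside 1.46% and 27.8% of all genes. The median of 0.52 for branched-chain amino acid degradation lay between these, and no difference between the lists was tested. The mean log2 level of the propionate branch, relative to the Control mean, was -0.51, -0.07, 0.47, 0.07 and 0.04 in Control and 0.87, 0.49, 0.76 and 0.78 in UBKO, and that of the citrate cycle was -0.55, 0.01, 0.36, 0.18 and -0.002 in Control and 0.77, 0.52, 0.59 and 0.57 in UBKO. In both lists the lowest and the highest Control library were replicates 1 and 3, and the lowest and the highest UBKO library were replicates 2 and 1. The order was not particular to them. It was the same for the leucine branch, the valine and isoleucine branch, the acyl-CoA steps and all 46 tested genes. The dehydrogenase complex and the adipocyte markers differed only in having UBKO replicate 4 highest. Transamination, ketone body and aldehyde and amine steps had other orders.

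Per length, the pathway genes with the highest level in Control were Acaa1b at 496 ± 113, Acaa2 at 145 ± 28, Acadm at 106 ± 24.5, Bckdha at 102 ± 29.3 and Hadh at 95.2 ± 17.1 FPKM (SD, n = 5). Acaa1b stood apart, while its followers did not separate from their neighbours beyond their spread. Of the genes that rose, Mccc1 was the lowest, at 7.06 ± 2.46 FPKM in Control and 11.7 ± 1.34 FPKM in UBKO. FPKM was scaled by the authors to total counts, so UBKO lies lower against Control in FPKM than in TMM-scaled CPM.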

How the data were processed

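RNA sequencing of 9 mouse epididymal fat libraries was used, 5 Control and 4 UBKO, grouped by the sample titles. Per the labels' protocols, RNA was taken on RNeasy columns and paired-end TruSeq libraries were made; HISAT2, SAMtools 1.3.1, Cuffdiff and mm10 appear in the submitters' processing notes. The sources used here give no roles for them, no read counter, no strand setting and no annotation. The authors deposited whole-number read counts and FPKM per gene and library, and their own log2 ratio, p-value and q-value. Depth was 15308480 to 17632709 counts, and replicates differed by more than sampling noise.

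From the deposited counts, differences were fitted in edgeR 4.0.16 (R 4.3.3; filterByExpr by group, TMM, glmQLFit and glmQLFTest, genotype only, two-sided, Benjamini-Hochberg over 16123 genes, threshold 0.05). CPM is scaled by TMM. Ratios of 2 genes used log2 of CPM + 0.5 and an exact permutation test (scipy 1.17.1). On simulated counts for 15813 genes the fit recovered 55% of 2-fold and 93% of 4-fold changes, with 9 false calls among 157. There, changes were placed only on genes above a minimum CPM, and noise was drawn separately for each gene. Differences that libraries share across genes, such as epididymal transcripts, were not simulated, so these rates may not hold for the real libraries. Alternatives were other scalings, no filter, libraries left out, a replicate block, DESeq2 1.42.0, limma 3.58.1 on log2(FPKM + 1) (FPKM of 1 or more in 4 or more libraries), and the authors' deposited comparison; the 2 looser motifs were added after seeing the data. Members, lists and tests were chosen with earlier results of these data known. Named with values were each tested gene of the transamination, dehydrogenase, leucine, valine and isoleucine, and propionate steps, each gene past the threshold and the 3 with the highest CPM of other steps, and each partner; other named genes are marked. A few genes of these lists count in the totals but are not reported here by name. Promoter windows came from RefSeq (GRCm38.p6).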

Additional observations from a re-analysis of the deposited data

Results flagged for a closer look

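Of 150 groups of 4 or 5 libraries examined, each for 1 of 72 genes or 1 of 3 ratios in 1 genotype, 6 held a single library far from the others by Dixon's test at 95%, which chance gives in about 1 of 20 groups. Aox1 had 128 CPM in Control replicate 3, against 51.7 to 73.2 CPM in the other Control libraries. Bcat1 had 5.36 CPM in Control replicate 5, against 4.60 to 4.67 CPM. Echs1 had 399.8 CPM in UBKO replicate 2, against 561 to 580.1 CPM in the other UBKO libraries. Etfdh had 303 CPM in UBKO replicate 1, against 205 to 220.4 CPM in the other UBKO libraries. Got2 had 55.9 CPM in UBKO replicate 2, against 24.7 to 28.0 CPM. Hadhb had 175 CPM in Control replicate 5, against 32.1 to 68.2 CPM in the other Control libraries.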

How the results depend on the processing

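Over 72 genes and all alternatives, 1038 values kept direction and side of the threshold, 154 no longer passed, 73 newly passed and 92 reversed; where no construction shows it, the cause was not tested. Pathway genes called higher numbered 12 with edgeR and TMM, 13 with DESeq2 size factors, 9 with limma, 8 in the authors' deposited table (7 of the 12 and Aacs), 5 with total counts, 4 without Control replicates 1 and 2, 8 without UBKO replicate 2 as well, 21 (all 12 included) with DESeq2's Wald test, 1 with no filter on low counts and 1 with adipocyte scaling. Called lower were 0, but 2 with DESeq2's Wald test, 3 with limma, 7 with total counts and 2 with adipocyte scaling. Without Control replicates 1 and 2 and UBKO replicate 2, 2 were called lower. Among all genes tested, limma called 277 of 12031 higher and 3748 lower, beside its 9 and 3 in the pathway. The authors' deposited comparison called 295 of 28481 genes higher and 998 lower. DESeq2 size factors gave 691 of 16123 higher and 1162 lower, and no filter 300 of 28481 higher and 810 lower. All genes called numbered 1845, against 3030 with DESeq2, 4025 with limma, 4718 with total counts, 1110 with no filter and 1022 without Control replicates 1 and 2. The pathway's median of 0.52 was 0.16 with total counts, 0.062 with adipocyte scaling, 0.23 with limma and 0.19 in the authors' deposited table. Leaving out 1 library gave 1 to 23 higher and 0 to 2 lower. All genes called then numbered 756 to 2449, with 152 to 954 higher and 604 to 1495 lower of 15781 to 16625 tested. The Bcat2 to Bcat1 log2 ratio difference was then 1.73 to 2.44. It passed when Control replicate 3 was the library left out and in no other of the 9 sets. The difference was -0.039 to 0.18 for Bckdk to Ppm1k and -0.68 to -0.40 for Bckdk to Bckdha. With 8 libraries, the smallest adjusted p of 1 ratio alone is 0.0857 or 0.107, so losses there say nothing about stability; without Control replicates 1 and 2 the Bcat2 ratio difference was 1.72 (exact permutation p adjusted 0.171). Without 1 or more libraries, Aldh9a1 ranged up to 0.048 and down to -0.18, at -0.095 without Control replicates 1 and 2 and UBKO replicate 2, and Slc25a44 from -0.047 without Control replicates 1 and 2 to 0.23, at -0.0032 without Control replicate 1 alone. With the replicate number as a block, Aldh9a1 turned to 0.036. That fit called 2 genes of the pathway higher (Pcca and Pccb) and 747 of all genes, 191 higher and 556 lower. Same-numbered libraries deviated together with r of -0.19, 0.43, 0.11 and 0.15. UBKO replicate 2 and Control replicate 1, of unlike number, had r of 0.36, and both of these and Control replicate 2 held epididymal transcripts. These values therefore do not settle whether the numbers pair the libraries. Of the genes reported by name, those reversed with total counts were Acaa1a -0.24, Acad8 -0.23, Acads -0.26, Aldh7a1 -0.34, Aox3 -0.085, Btd -0.32, Glud1 -0.0032, Gpt -0.13, Hadha -0.098, Hadhb -0.23, Lias -0.0096, Lipt1 -0.097, Lipt2 -0.32, Mcee -0.059, Mmaa -0.19, Mmab -0.092, Mmachc -0.26, Oxct1 -0.25 and Slc25a44 -0.26. With adipocyte scaling these were Acaa1a -0.37, Acad8 -0.39, Acads -0.41, Aldh2 -0.098, Aldh7a1 -0.47, Aox1 -0.054, Aox3 -0.21, Auh -0.0072, Bckdk -0.047, Btd -0.44, Dbt -0.018, Etfa -0.061, Glud1 -0.12, Gpt -0.23, Hadha -0.22, Hadhb -0.31, Lias -0.13, Lipt1 -0.21, Lipt2 -0.48, Mcee -0.19, Mmaa -0.31, Mmab -0.22, Mmachc -0.39, Mmadhc -0.12, Oxct1 -0.41, Ppm1k -0.047 and Slc25a44 -0.38. With limma on FPKM they were Acaa1a -0.21, Acad8 -0.15, Acads -0.23, Aldh7a1 -0.27, Btd -0.27, Gpt -0.080, Hadha -0.073, Lipt1 -0.060, Lipt2 -0.21, Mcee -0.033, Mmaa -0.12, Mmab -0.063, Mmachc -0.21, Oxct1 -0.17 and Slc25a44 -0.20. In the authors' deposited table they were Acaa1a -0.21, Acad8 -0.20, Acads -0.23, Aldh7a1 -0.31, Aox3 -0.062, Btd -0.29, Gpt -0.11, Hadha -0.075, Hadhb -0.21, Lipt1 -0.074, Lipt2 -0.29, Mcee -0.034, Mmaa -0.16, Mmab -0.066, Mmachc -0.24, Oxct1 -0.22 and Slc25a44 -0.24. Without Control replicates 1 and 2 they were Acaa1a -0.020, Btd -0.11, Gpt -0.034, Hadhb -0.28, Mmachc -0.039 and Slc25a44 -0.047, and without UBKO replicate 2 as well Btd -0.046 and Hadhb -0.24. Hadhb also turned without Control replicate 1, to -0.041, and ranged up to 0.75, without Control replicate 5. Depth limits Il4i1, Aldh1b1, Aox3 and Bcat1, with 89 to 551 counts over the 9 libraries.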
